A study of Mus musculus with 8 samples.

Results

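The 8 mouse acute myeloid leukaemia libraries of this series were set in order by a single gene, Chi3l3, and the 4 libraries with the least of it were described against the 4 with the most. The libraries were chosen by the measured Chi3l3 value itself: those with a deposited value below 500000 form the low side, 4 of 8, and the others form the high side, 4 of 8. The low side holds 11B3-deleted replicates 1 and 3 and p53-loss-only replicates 2 and 4. The high side holds 11B3-deleted replicates 2 and 4 and p53-loss-only replicates 1 and 3. Each genotype therefore supplied 2 libraries to each side. The sides are not groups of the study, and because measured values made them, every difference between them below is a description with no test.

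The study sequenced total RNA of leukaemia cells collected from the bone marrow of C57BL/6 mice that had become moribund. All 8 leukaemias carried Vav1-Cre, a recombinase expressed in blood-forming cells, together with hairpins shNf1, against the Ras inhibitor Nf1, and shMll3, against the histone methyltransferase Mll3. In the 11B3-deleted libraries (genotype 11B3fl/p53fl, n = 4) 1 copy of chromosome 11 carried a deletable 11B3 interval that includes the p53 gene, and the other copy carried a floxed p53 allele. In the p53-loss-only libraries (genotype p53fl/fl, n = 4) both copies carried the floxed p53 allele. The labels call the cells lines and do not tie each to its own animal, so a p-value here measures the spread between these libraries, which may be technical.

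Chi3l3 (current symbol Chil3, protein name Ym1) encodes a secreted lectin of the chitinase family that binds sugar polymers but has lost the enzyme activity. In mice it is made in large amounts by immature neutrophil-lineage cells of the marrow, and it is also widely used as a marker of alternatively activated macrophages. Its close relative Chi3l4 (Chil4, Ym2) is a near copy, and Chi3l1 (Chil1) is a more distant secreted member of the family. The other 2 genes given with Chi3l3 for this description belong to the red cell lineage: Gata1 encodes the transcription factor that drives erythroid maturation, and Car1 encodes carbonic anhydrase 1, an abundant enzyme of immature red cells.

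The promoter sequences of the chitinase-like genes that separated the sides are shown first, since Chi3l3 and Chi3l4 were higher on the high side and Chi3l1 was higher on the low side. They are the 250 bases before the RefSeq gene start (build GRCm38.p6), 5′ to 3′ on the gene's strand, and capitals mark matches on either strand to the C/EBP-type pattern TTNCNNAA, where N is any base. They lie at chr3:106167565-106167814 (minus strand, Chi3l3), chr3:106219480-106219729 (minus strand, Chi3l4) and chr1:134181906-134182155 (plus strand, Chi3l1). Isg15, an interferon-induced ubiquitin-like protein, is added for the interferon genes described further on, at chr4:156200819-156201068 (minus strand), with capitals on matches to GAAANNGAA on either strand, a core of the interferon-stimulated response element, which overlap each other here.
Chi3l3: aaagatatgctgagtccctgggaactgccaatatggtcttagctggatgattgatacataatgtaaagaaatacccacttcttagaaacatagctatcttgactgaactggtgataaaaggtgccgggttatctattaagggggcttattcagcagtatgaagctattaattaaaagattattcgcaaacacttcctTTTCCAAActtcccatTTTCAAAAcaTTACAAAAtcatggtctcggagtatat
Chi3l4: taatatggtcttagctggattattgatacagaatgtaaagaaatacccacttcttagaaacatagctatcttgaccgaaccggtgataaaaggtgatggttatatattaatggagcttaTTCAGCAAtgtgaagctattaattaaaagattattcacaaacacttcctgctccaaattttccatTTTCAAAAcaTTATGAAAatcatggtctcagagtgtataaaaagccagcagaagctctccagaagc
Chi3l1: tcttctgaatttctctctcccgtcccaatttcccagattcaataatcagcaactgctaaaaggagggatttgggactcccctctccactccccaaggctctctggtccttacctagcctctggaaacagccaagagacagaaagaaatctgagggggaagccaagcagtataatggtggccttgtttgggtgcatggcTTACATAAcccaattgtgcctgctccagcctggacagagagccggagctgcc
Isg15: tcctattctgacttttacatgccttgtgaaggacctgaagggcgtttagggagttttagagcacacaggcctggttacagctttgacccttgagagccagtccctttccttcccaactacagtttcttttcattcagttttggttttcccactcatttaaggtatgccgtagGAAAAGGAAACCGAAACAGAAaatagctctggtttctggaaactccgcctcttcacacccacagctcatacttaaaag
The C/EBP-type pattern occurred 3 times before Chi3l3, 3 times before Chi3l4 and 1 time before Chi3l1. The Chi3l3 and Chi3l4 windows were 91.0% identical over 221 aligned bases. A match is common: 33.0% of the 10765 tested genes with a RefSeq promoter had at least 1, as did 36.8% of all 32851 windows of this length. Among genes whose sides did not overlap the share was 33.8% where the high side was higher and 31.3% where the low side was higher. Of the lists searched, the share of genes with a match was 75.0% for secondary granule (9 of 12 genes with a promoter), 61.9% for tertiary granule, 58.8% for interferon response, 45.0% for erythroid and 44.4% for primary granule genes. A gene with several windows was counted once.

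Chi3l3 was among the most abundant genes of every library. Values throughout are deposited values, that is, reads divided by a size factor for the library, with 1 added. They are listed in a fixed order: on the low side 11B3-deleted replicates 1 and 3, then p53-loss-only replicates 2 and 4, and on the high side 11B3-deleted replicates 2 and 4, then p53-loss-only replicates 1 and 3. Chi3l3 stood at 348846.2, 226323.0, 391265.6 and 338103.9 on the low side and at 824256.1, 663669.6, 705603.8 and 1217226.8 on the high side. The libraries nearest the dividing value were p53-loss-only replicate 2, at 391265.6, and 11B3-deleted replicate 4, at 663669.6, so no library lay close to 500000. Chi3l3 ranked first among all genes in the 4 high-side libraries and in 11B3-deleted replicate 1, and ranked 2 or 3 in the other 3. Its share of all reads ran from 0.7597% (95% Wilson interval 0.75666 to 0.7628) in 11B3-deleted replicate 3 to 3.543% (3.5364 to 3.5494) in p53-loss-only replicate 3, intervals that cover counting error only. The high side was 2.59-fold higher (log2 difference, low minus high, -1.37), and the difference was -1.40 within the 11B3-deleted libraries and -1.35 within the p53-loss-only libraries. In bulk RNA of this kind, fewer cells that make Chi3l3 and less Chi3l3 RNA per cell cannot be told apart.

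**Figure D1:**
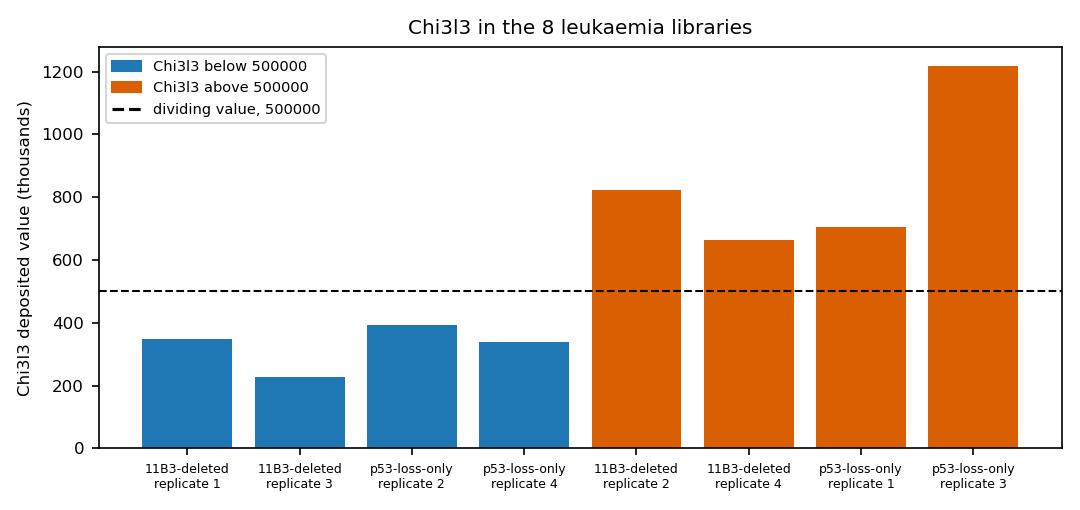
Deposited value of Chi3l3 in each of the 8 leukaemia libraries, as bars from 0, with the dividing value of 500000 as a dashed line. The 4 low-side libraries reach from 226323.0 to 391265.6 and the 4 high-side libraries from 663669.6 to 1217226.8.

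Depth did not separate the sides. The recovered reads numbered 30502718 to 32931845 per library on the low side and 30591456 to 35719495 on the high side, and a count of 3 reads gives a deposited value from 3.663 to 4.29. The labelled cell type was checked on genes of myeloid cells: Mpo, Elane, Prtn3 and Ctsg, which encode enzymes of primary granules, were high in all 8 libraries (lowest value 10540.2, for Ctsg in 11B3-deleted replicate 1), and the surface markers Cd33, Itgam, Ptprc and Csf3r were detected in all 8, with the lowest value 280.0 for Cd33 in p53-loss-only replicate 4. All 28 pairs of libraries differed by more than counting noise, with a smallest chi-square of 95.93 per degree of freedom.

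Across the 14679 tested genes, those that reached a value of 10 in 4 or more libraries, the sides differed broadly. The 4 low-side values all lay above the 4 high-side values for 1142 genes (7.78% of those tested), and all lay below them for 1257 genes (8.56%). The difference was at least 2-fold for 318 of the first and 532 of the second, and at least 8-fold for 29 and 40. The median difference over all tested genes was 0.004 on the log2 scale. The 2 genotypes did not overlap for 315 genes (2.15%). The low side was higher for 47.6% of the separating genes with the deposited scaling but for 65.6% with scaling to equal library totals (CPM), which gave 1689 genes higher on the low side and 884 higher on the high side. Leaving out p53-loss-only replicate 2 raised the counts to 2165 and 2020, and leaving out 11B3-deleted replicate 4 raised the first to 1795, since fewer libraries then have to separate. Because a gene of this same table chose the sides, nothing is read from these shares.

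The first principal component of the tested genes, Chi3l3 among them, held 36.7% of the variance. It placed every low-side library above 0 and every high-side library below 0. Its scores were 60.1, 77.7, 21.5 and 31.7 on the low side and -51.1, -13.7, -47.0 and -79.3 on the high side. The sides come from a gene of the same data and were chosen with earlier results known, so this placement is a description and no independent support. The second component (20.4%) set p53-loss-only replicate 4, at 89.6, apart from the other 7, which lay between -52.7 and 18.6. Neither component separated the genotypes.

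**Figure D2:**
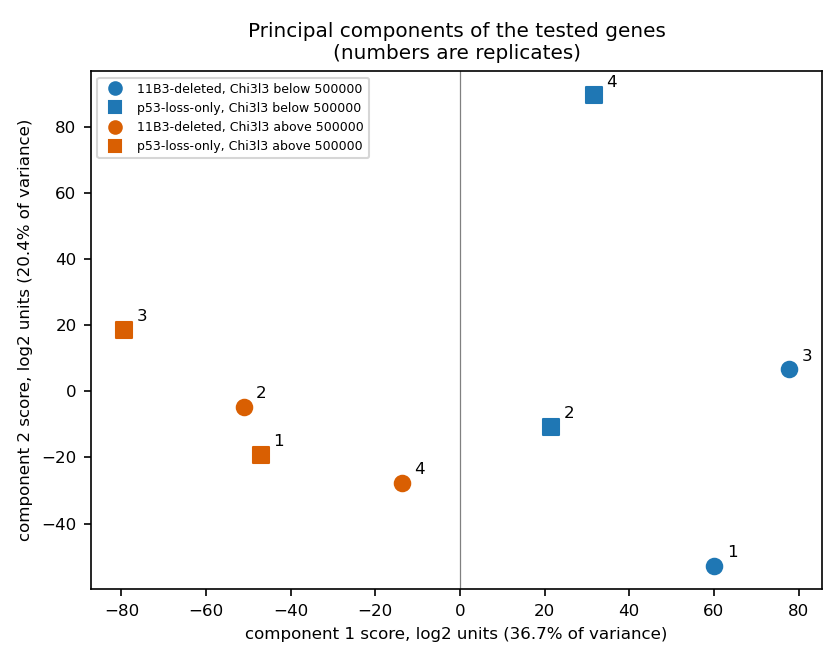
Scores of the 8 libraries on the first 2 principal components of the log2 values of the 14679 tested genes, coloured by Chi3l3 side, with circles for 11B3-deleted and squares for p53-loss-only libraries and replicate numbers beside the points. The low side lies between 21.5 and 77.7 on component 1 and the high side between -79.3 and -13.7.

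The side differences of the 2 genotypes come from different libraries and can be set side by side. The low-minus-high difference had the same sign in both genotypes for 10234 of 14678 genes (69.7%), and the Pearson correlation across genes was 0.5. Genes are not independent replicates, each difference rests on 2 libraries against 2, and all libraries were picked for the same gene, so the correlation is given as a description.

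**Figure D3:**
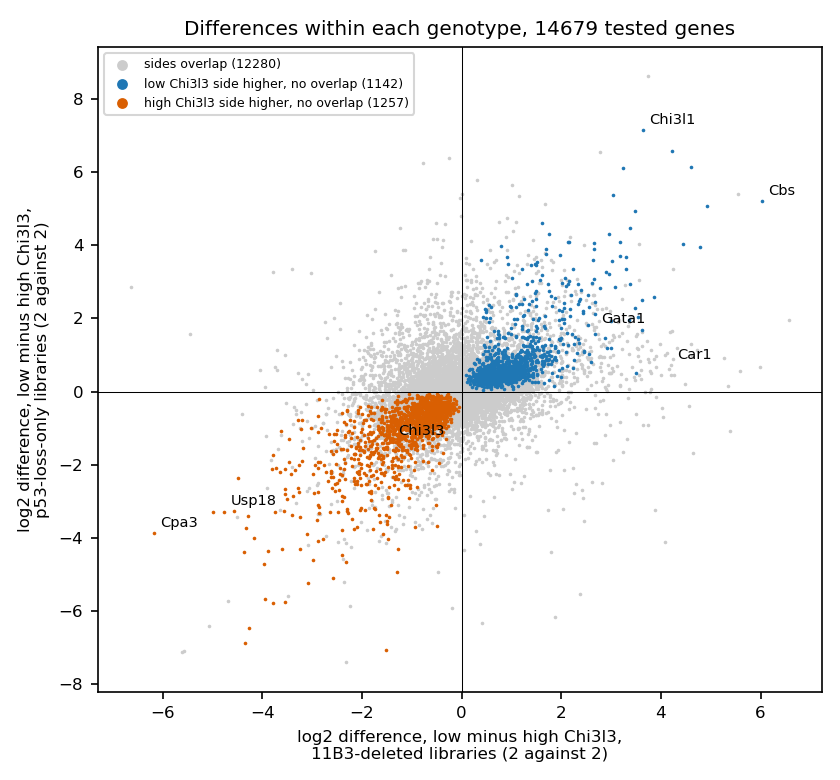
Log2 difference, low minus high side, within the 11B3-deleted libraries (horizontal) and within the p53-loss-only libraries (vertical), 1 point for each of the 14679 tested genes, with the 1142 and 1257 separating genes coloured. Chi3l3 lies at -1.40 and -1.35, Chi3l1 at 3.63 and 7.14, and Car1 at 4.2 and 0.73.

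Within the chitinase family the members did not move together. Chi3l4 stood at 63.5, 36.9, 80.8 and 74.5 on the low side and at 210.8, 167.9, 190.3 and 311.3 on the high side (log2 difference -1.80, no overlap), like Chi3l3. The Chil3 and Chil4 transcripts were 94.4% identical over 1538 aligned bases, and Chi3l4 reads were only 0.0158% to 0.0217% of the Chi3l3 reads on the low side and 0.0251% to 0.0268% on the high side. The sources used here do not say how reads shared by gene copies were counted, so the Chi3l4 value may hold reads of Chi3l3. Chi3l1 went the other way, at 70.3, 917.9, 842.3 and 898.7 on the low side against 10.7, 39.2, 5.9 and 6.5 on the high side. The low side was 41.9-fold higher for Chi3l1 (log2 difference 5.39, and 3.63 and 7.14 within the 11B3-deleted and p53-loss-only libraries, and 3.61 on the scale of CPM plus 1), and its transcript shares only 59.2% of 1450 aligned bases with that of Chil3. Chi3l7 overlapped between the sides (10.8, 40.7, 115.7 and 22.3 against 12.8, 17.0, 25.3 and 3.2). Chid1 (log2 difference 0.14) and Ovgp1 (0.11), the chitinase-domain and oviductal members, were nearly level. The true chitinases Chia and Chit1 did not reach the level for testing. Of the 6 tested members of this list 1 separated with the low side higher (7.78% of all tested genes). In the other direction 2 separated (8.56%), Chi3l3 among them, and the list median was 0.13.

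Car1 and Gata1 were generally higher on the low side but overlapped. Car1 stood at 118943.5, 23898.4, 9175.1 and 161.8 on the low side and at 1554.9, 5391.0, 6160.2 and 87.6 on the high side (log2 difference 2.47). In all, 3 low-side libraries were above all high-side libraries, and p53-loss-only replicate 4 fell among the lowest. The difference was 4.2 within the 11B3-deleted libraries and 0.73 within the p53-loss-only libraries. It was 1.59 without p53-loss-only replicate 3, 4.04 without p53-loss-only replicate 1 and 3.98 without p53-loss-only replicate 4. Gata1 stood at 5043.6, 812.3, 1333.1 and 29.8 against 142.0, 718.1, 386.5 and 9.8 (2.18, and 2.66 and 1.70 within the genotypes). Both low-side 11B3-deleted libraries were above all high-side libraries for Gata1, as was p53-loss-only replicate 2, and the overlap came from p53-loss-only replicate 4. The Gata1 difference was 3.34, 1.18, 1.22 and 3.37 without p53-loss-only replicates 1, 2, 3 and 4 in turn.

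The wider erythroid list had the same shape. Of its 32 tested members 30 had a positive difference, and the median was 1.41 (1.59 within the 11B3-deleted and 0.98 within the p53-loss-only libraries). Only Tfrc, the transferrin receptor for iron uptake, separated the sides, at 12051.6, 9882.7, 7239.4 and 6419.1 against 4174.2, 5046.6, 4485.2 and 1867.3. Of all tested genes 7.78% separated in that direction. Car2, the second carbonic anhydrase, stood at 43867.4, 12307.8, 9677.9 and 187.4 against 1165.4, 3496.1, 2588.8 and 132.6. Epor, the erythropoietin receptor, followed the same order, with 3895.5, 1191.3, 1171.6 and 22.3 against 106.5, 410.2, 354.5 and 17.4. The library medians of the list, relative to the mean of all 8, were 2.15, 0.97, 1.75 and -1.81 on the low side and -0.68, 0.68, 0.44 and -2.88 on the high side, so p53-loss-only replicates 3 and 4 were both low whatever their side. The summed level of the list ranged from 28653.3 to 293727.6 on the low side and from 18149.8 to 55436.5 on the high side. Without p53-loss-only replicate 4 the median was 2.24, and without p53-loss-only replicate 2 it was 0.62.

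Haem synthesis genes leaned the same way. Of 9 tested members 8 were positive, with a median of 0.65 and overlapping library medians. Urod, which encodes uroporphyrinogen decarboxylase, was the 1 member that separated (3059.8, 1817.4, 2019.3 and 1615.4 against 915.7, 1559.5, 1433.3 and 1442.9). In that direction 7.78% of all tested genes separated. The erythroid form of the first enzyme, Alas2, was nearly level at 0.21.

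Several primary granule genes, which promyelocytes express, were higher on the side with more Chi3l3. Of 11 tested members 9 were negative, 6 separated with the high side higher (8.56% of all tested genes) and 1 with the low side higher (7.78%). Ctsg, the serine protease cathepsin G, stood at 10540.2, 15266.1, 17951.1 and 30238.8 on the low side and at 35300.3, 31764.2, 41650.9 and 49496.8 on the high side (-1.18). Cst7, a cysteine protease inhibitor, had the largest difference, -2.56, with 1072.0, 475.9, 656.0 and 58.5 against 1652.9, 2438.2, 2074.1 and 2842.1. Ms4a3, a membrane protein of granulocyte-monocyte progenitors, stood at 2027.8, 3240.3, 2974.3 and 2810.2 against 6107.0, 10581.3, 5752.3 and 6661.3 (-1.37). Prtn3, Srgn and Serpinb1a were also higher in all 4 high-side libraries, by -0.80, -1.10 and -0.82. The exception was Prss57, another granule serine protease, at 533.1, 2047.1, 1200.1 and 3567.3 on the low side against 439.0, 435.0, 291.3 and 434.1 (1.90). Mpo (-0.71) and Elane (-0.83) overlapped. The list median was -0.82 (-1.08 and -0.57 within the genotypes), and the library medians of the sides did not overlap, with -0.62, -0.31, -0.47 and -0.05 against 0.18, 0.61, 0.49 and 0.39.

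Later granule genes were less uniform. Of 14 tested secondary granule genes 10 were negative and 3 separated with the high side higher, as did 8.56% of all tested genes. The median was -0.38 (-0.84 within the 11B3-deleted and -0.13 within the p53-loss-only libraries), and the library medians overlapped. It was -0.20 without 11B3-deleted replicate 1, -0.25 without 11B3-deleted replicate 4 or p53-loss-only replicate 1, and -0.71 without p53-loss-only replicate 3. Cd177, a neutrophil surface glycoprotein, stood at 8059.4, 8262.1, 16453.9 and 7962.2 against 34915.0, 28799.8, 40768.2 and 30840.6 (-1.79). Hp, which encodes haptoglobin, stood at 24928.1, 23593.1, 31354.6 and 27819.3 against 61490.1, 64705.1, 53663.3 and 63195.6 (-1.18). Anxa1 separated as well (-0.67). Ltf, the iron-binding lactoferrin, went the other way but overlapped, at 3357.5, 15849.6, 10932.0 and 7596.9 against 1669.0, 5660.8, 5749.4 and 996.6 (1.59). Pglyrp1 (1.62) was also higher on average on the low side, while Camp (-0.48), Ngp (-0.33) and Lcn2 (-0.89) were lower.

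Tertiary granule and mature neutrophil genes split further. Of 25 tested members 15 were positive, and the median was 0.91 (0.43 on the scale of CPM plus 1), but it was -0.37 within the 11B3-deleted libraries and 0.94 within the p53-loss-only libraries. Leaving out 1 library gave 0.17 (11B3-deleted replicate 3), 0.23 (p53-loss-only replicate 2), 0.27 (p53-loss-only replicate 3), 0.46 (11B3-deleted replicate 4) or 0.60 (11B3-deleted replicate 2). The stefin genes Stfa1 (3.21) and BC100530 (2.21), cysteine protease inhibitors of neutrophils, had large positive differences, as did Padi4 (2.28), which citrullinates histones. The stefin genes are near copies of one another, so their reads may be shared. The 2 members that separated were both higher on the high side: Itgb2, the integrin beta 2 chain (9267.1, 5742.0, 14271.4 and 9454.1 against 26165.0, 19241.0, 20418.6 and 21300.9), and Trem1, a receptor that amplifies inflammation (344.7, 255.9, 488.1 and 256.6 against 869.4, 1511.6, 870.1 and 957.2). That count of 2 among 25 lay near the 8.56% of all tested genes that separated in that direction, so nothing is read from it. S100a8 (0.24) and S100a9 (0.09), the calprotectin pair, averaged near 0 from opposite differences, -1.28 and 1.77 for S100a8 and -1.24 and 1.43 for S100a9 within the 11B3-deleted and p53-loss-only libraries.

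The NADPH oxidase genes, whose complex makes superoxide in phagocytes, were moderately lower on the low side. Of 6 tested members 4 were negative and 2 separated (1 with TMM factors or with CPM), with a median of -0.62. Both had the high side higher, as did 8.56% of all tested genes. The library medians of the sides just failed to overlap, at 0.09 in p53-loss-only replicate 2 against 0.10 in 11B3-deleted replicate 2, and overlapped with TMM factors and with CPM. Cyba, a membrane subunit, was one of those that separated, at 6579.4, 5806.9, 5423.8 and 5704.6 against 7340.2, 7744.8, 8672.2 and 9480.4 (-0.50).

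Monocyte and macrophage genes were lower on the low side in 22 of 23 tested members, and 5 separated, where 8.56% of all tested genes did so in that direction. Mpeg1, a pore-forming protein of macrophages, stood at 31779.8, 14665.1, 26005.1 and 21615.2 against 38863.3, 59046.1, 65010.7 and 101427.9 (-1.46). Ly6c2, the marker of inflammatory monocytes, stood at 18835.9, 19300.2, 18885.1 and 24036.8 against 34800.9, 42049.8, 45413.6 and 65402.9 (-1.18). Ms4a6c (-1.27), F13a1 (-0.77) and Ly86 (-0.65) separated too. Csf1r, the receptor for macrophage colony-stimulating factor, overlapped by a single library, with 10982.5, 7114.5, 13795.2 and 10359.3 against 13666.8, 19231.2, 21427.5 and 31266.0 (-0.99). The resident macrophage genes C1qa, C1qb and C1qc differed by only -0.21, -0.12 and -0.02. The median was -0.77 (-0.80 and -0.91 within the genotypes), and the library medians did not overlap, except with CPM, where 4 members separated and C1qc changed sign.

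Alternative macrophage activation, the state in which Chi3l3 is best known as a marker, was mixed. Arg1, the arginase that is its usual companion marker, was too low for testing, at 5.9, 4.9, 3.8 and 2.1 against 62.3, 3.7, 3.9 and 8.7. Retnla, Ccl17, Ccl22 and Ccl24 were also too low. Of the 9 tested members 4 were positive and 5 negative, with a median of -0.30 (-0.98 within the 11B3-deleted and -0.03 within the p53-loss-only libraries). The median was negative in all 14 alternatives, and it was -0.54 without p53-loss-only replicate 3, -0.16 without 11B3-deleted replicate 1 and -0.05 without 11B3-deleted replicate 4. The only member that separated was higher on the low side (7.78% of all tested genes). That was Pparg, a lipid-sensing nuclear receptor, at 348.6, 254.0, 482.6 and 620.8 against 129.1, 60.5, 33.0 and 22.9 (3.03). Alox15 (-1.90) and Il13ra1 (-1.05) overlapped.

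Among myeloid transcription factors 3 members of the C/EBP family separated with the high side higher (8.56% of all tested genes), and 2 overlapped. Cebpa, which commits progenitors to the granulocyte-monocyte fate, stood at 5225.2, 4642.8, 6955.0 and 8755.5 on the low side and at 12280.7, 12857.9, 14772.1 and 13374.1 on the high side (-1.10). Cebpd stood at 647.3, 891.8, 920.2 and 856.1 against 1059.9, 2040.6, 1370.1 and 1518.6 (-0.83), and Cebpg, a partner with little activity of its own, separated with -0.48. Cebpb (-0.12) and Cebpe (0.27) overlapped and were nearly level. Of 11 tested factors 10 were negative, with a median of -0.53 and overlapping library medians. Gfi1 (-0.78), Irf8 (-0.70) and Myb (-0.87) overlapped.

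Of 12 tested growth factor receptors 4 separated, each with the high side higher, as did 8.56% of all tested genes. Csf2rb2, the beta chain particular to interleukin 3, stood at 1984.9, 807.4, 2037.7 and 334.3 against 6280.2, 3319.5, 5067.8 and 4040.6 (-2.15). Csf2rb, the beta chain common to interleukin 3, interleukin 5 and GM-CSF, stood at 7972.5, 6248.9, 9126.5 and 5806.8 against 19657.6, 14721.7, 13259.3 and 13955.3 (-1.09). The 2 genes are near copies, so reads may be shared between them. Csf2ra, the GM-CSF alpha chain (-1.14), and Il6ra (-0.87) also separated. Kit, the stem cell factor receptor, was higher on average on the low side but overlapped, at 4132.7, 3762.7, 1526.7 and 5565.1 against 658.5, 3362.1, 1452.7 and 733.5 (1.45). Over the list 8 members were negative, and the median was -0.69.

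Genes of the ribosome biogenesis and MYC list were higher on the low side in all 28 tested members, and 14 separated (19 with CPM), beside 7.78% of all tested genes in that direction. Nop56, a protein of the box C/D complexes that guide methylation of ribosomal RNA, stood at 10814.6, 8889.2, 5600.0 and 6195.5 against 2579.4, 4565.6, 3410.2 and 3117.3 (1.18). Polr1b, the second-largest subunit of RNA polymerase I, stood at 4153.2, 3043.5, 1744.1 and 2087.1 against 871.6, 1399.8, 1063.3 and 992.3 (1.29). Npm1, nucleophosmin, stood at 39035.7, 34090.3, 26411.5 and 28115.4 against 16499.2, 19817.9, 17703.6 and 15847.9 (0.86). Nme1 (1.04) and Cad (1.0), the enzyme of pyrimidine synthesis, separated as well. Myc itself overlapped because of 11B3-deleted replicate 4, at 12570.0, 10014.5, 5355.0 and 6930.3 against 2173.7, 7130.6, 4536.6 and 3970.4 (1.02). The median was 0.74, larger within the 11B3-deleted libraries (1.03) than within the p53-loss-only libraries (0.39). Library medians of 0.95, 0.46, -0.12 and 0.22 lay above -0.55, -0.23, -0.35 and -0.29.

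Cell cycle genes leaned the same way by less. Of 45 tested members 43 were positive and 10 separated (15 with CPM), beside 7.78% of all tested genes in that direction (1689 genes with CPM). The median was 0.48, and the library medians overlapped. Bub1, a kinase of the spindle checkpoint, stood at 2531.6, 2874.9, 1366.1 and 2211.7 against 817.8, 1276.4, 730.2 and 614.0 (1.39). Aurka, the kinase of the spindle poles, stood at 2079.6, 2004.5, 1016.6 and 1679.3 against 812.4, 1003.0, 741.9 and 641.4 (1.05). Genes of DNA replication also separated, among them Pcna (0.86), Rrm1 (0.70) and E2f1 (0.85). Mki67, the standard proliferation marker, was nearly level, at 50636.2, 43908.0, 35092.1 and 34575.0 against 34587.9, 45217.4, 38561.1 and 32292.4 (0.12).

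Interferon response genes had a negative difference in all 23 tested members (22 with CPM, where Ddx58 changed sign from -0.03), with a median of -1.35 (-1.06 and -1.69 within the genotypes), but only 3 separated, a count near the 8.56% of all tested genes that did so in that direction. Usp18, which removes Isg15 from proteins and dampens the interferon receptor, stood at 69.3, 27.2, 46.9 and 28.7 against 1980.0, 701.3, 440.9 and 288.3, a 16.2-fold difference (-4.02). Irf9, the DNA-binding part of the interferon-activated complex, stood at 2274.8, 1358.9, 1812.0 and 879.5 against 2356.7, 3269.8, 3570.5 and 3149.1 (-1.03), and Mx1, an antiviral GTPase, separated with -1.35. Irf7 stood at 424.7, 156.1, 357.9 and 96.8 against 304.5, 2402.7, 2549.9 and 1078.9 (-2.44). The high side was not uniform: 11B3-deleted replicate 2 had the highest Usp18 of all, yet its Irf7 and Isg15 (48.3, against 67.0 to 175.3 on the low side) were no higher than on the low side. The library medians showed this, with -0.47, -0.91, -0.14 and -1.29 on the low side and -0.65, 1.64, 1.37 and 0.56 on the high side. Without 11B3-deleted replicate 2 the list median was -1.91. The GAAANNGAA pattern marked in the Isg15 promoter was present before 9 of the 17 genes of the list with a RefSeq promoter (52.9%), in 7.66% of tested genes and in 7.13% of all windows.

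**Figure D4:**
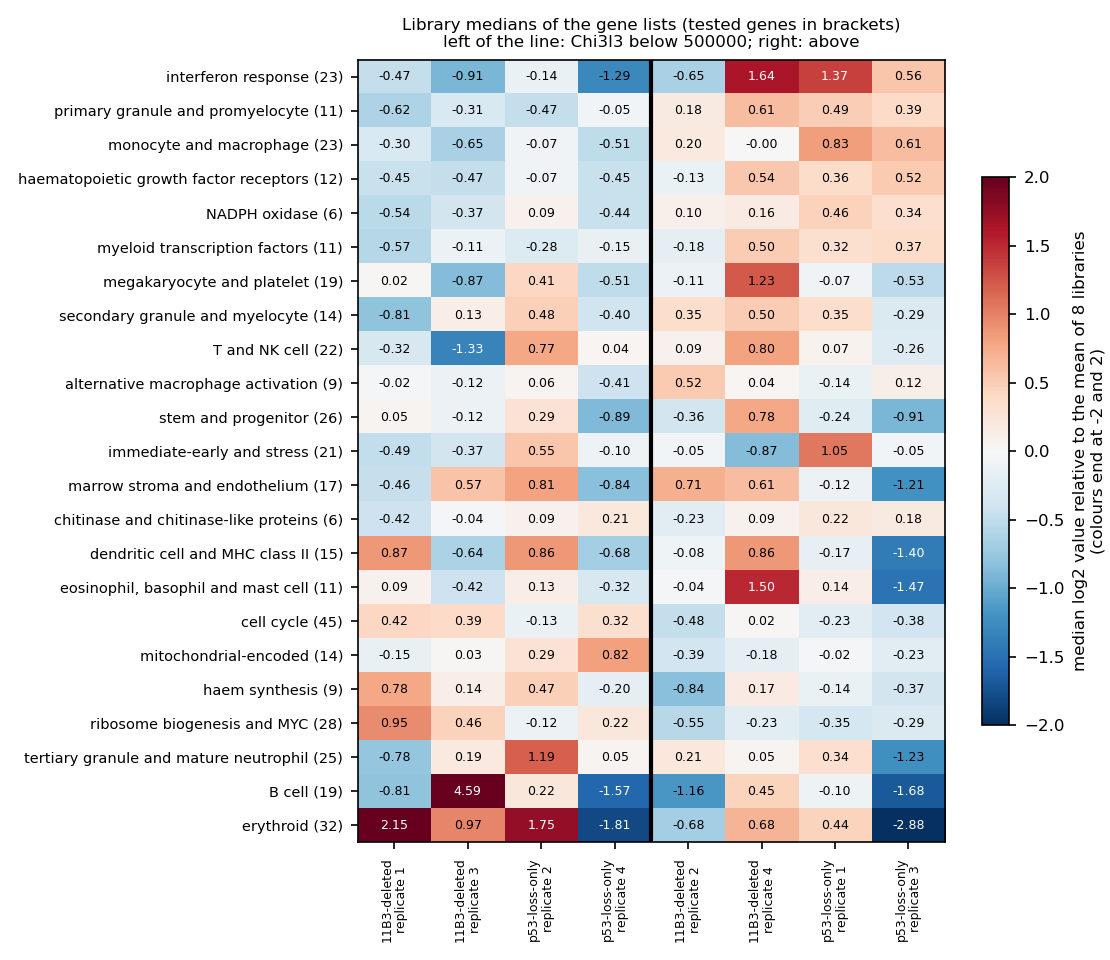
Median log2 value of the tested genes of each of 23 lists in each library, relative to the gene's mean over the 8 libraries, with the low side left of the line and the high side right of it, and colours that end at -2 and 2. The sides do not overlap for ribosome biogenesis and MYC, primary granule, monocyte and macrophage and NADPH oxidase genes at the deposited scaling (with CPM those of the last 2 lists overlap, and with TMM factors those of the last), while the erythroid list is at 2.15 in 11B3-deleted replicate 1 and at -2.88 in p53-loss-only replicate 3.

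The 12 genes per direction with the largest separating differences included 3 that are also members of the lists above, Chi3l1, Cpa3 and Usp18. Higher on the low side was Cbs, the transsulfuration enzyme cystathionine beta-synthase (535.0, 268.5, 130.4 and 253.4 against 2.1, 16.1, 11.7 and 2.1, log2 difference 5.62). Its high side was close to the detection level in part of its libraries, so the size of the difference depends on the constant of 1: on the scale of CPM plus 1 it was 2.99. Slc12a2, a sodium-potassium-chloride cotransporter, was well detected in all libraries, at 2276.8, 950.9, 830.3 and 1540.8 against 106.5, 246.0, 212.7 and 35.0 (3.45). Aff3, a nuclear protein of the AF4 family, stood at 529.2, 2099.5, 1111.1 and 697.4 against 41.9, 245.1, 55.4 and 28.4 (3.93), and Lphn2, an adhesion receptor, at 959.7, 719.2, 786.3 and 379.0 against 46.2, 221.1, 17.5 and 9.8 (4.21). Others were Chi3l1, Ripk4 (5.38), Uchl1 (5.0), Me1 (4.37), Unc5cl (4.24), Bicd1 (3.64) and Hic1 (3.15). For Hic1 the sides only just separated, since 24.3 in 11B3-deleted replicate 3 lay beside 21.4 in 11B3-deleted replicate 4.

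Higher on the high side was first Cpa3, the carboxypeptidase of mast cells and their progenitors, at 13.7, 11.7, 34 and 34 against 300.2, 2764.8, 511.8 and 483.5, a 32.5-fold difference (-5.02, and -3.69 on the scale of CPM plus 1). Clec11a, a secreted growth factor for progenitor and bone cells, stood at 281.2, 76.6, 90.9 and 103.2 against 1021.2, 1501.8, 3556.9 and 3797.1 (-4.16), and Serpinf1, the secreted pigment epithelium-derived factor, at 594.6, 303.4, 257.9 and 46.8 against 7105.6, 3423.3, 6852.5 and 5109.7 (-4.64). The lowest high-side value was 1021.2 for Clec11a and 3423.3 for Serpinf1, and the highest low-side value 281.2 and 594.6. Genes better known from other tissues were also well expressed on the high side: Dnahc12, an axonemal dynein heavy chain (2772.7, 110.5, 812.9 and 149.0 against 12103.2, 4866.5, 16541.3 and 22097.0, -4.79), and Stag3, a cohesin subunit of meiosis (680.5, 55.3, 941.4 and 335.4 against 4773.6, 4490.2, 6552.5 and 4501.1, -3.92). Shisa2 (-4.81), Rnf152 (-4.38), Asb14 (-4.34), Slc36a2 (-4.11), Slc24a3 (-4.03), Usp18 and Gng11 (-3.51) completed the 12.

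**Figure D5:**
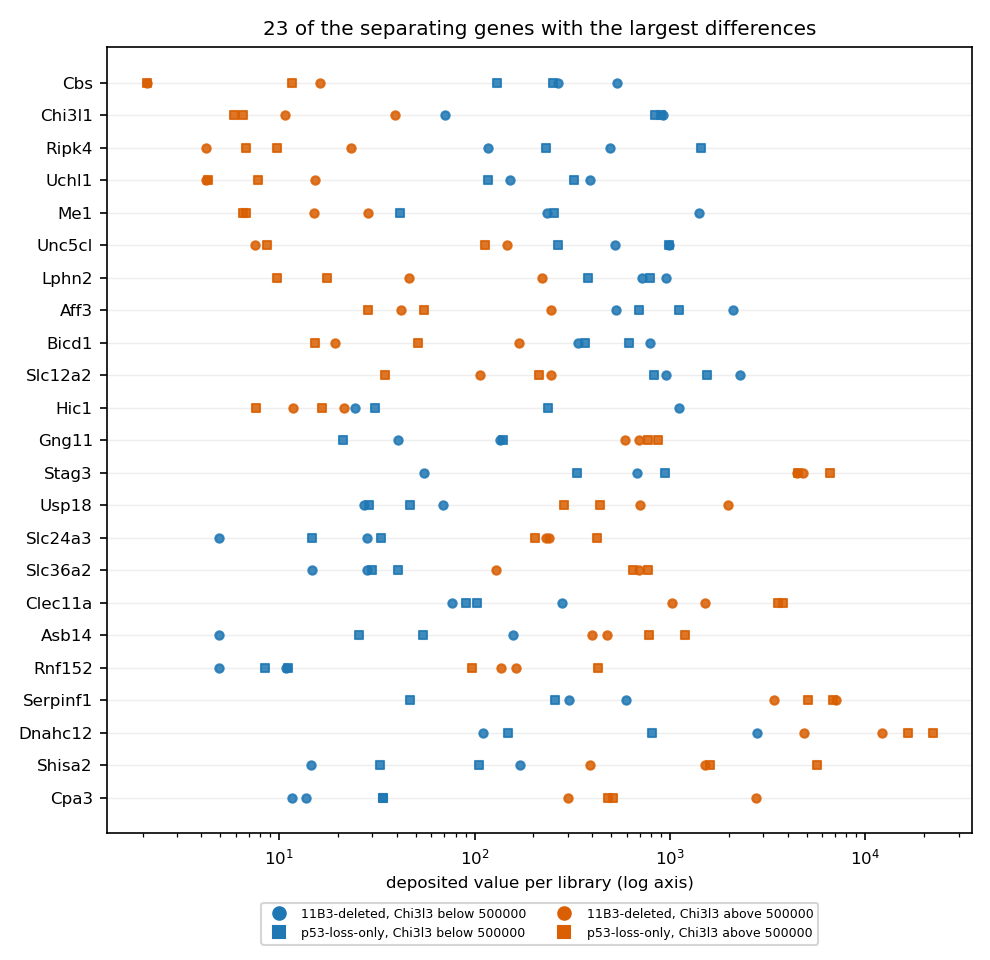
Deposited values on a log axis of 23 of the genes with the largest separating differences, 1 point per library, coloured by Chi3l3 side, with circles for 11B3-deleted and squares for p53-loss-only libraries. Cbs reaches from 130.4 to 535.0 on the low side and from 2.1 to 16.1 on the high side, and Cpa3 from 11.7 to 34 and from 300.2 to 2764.8.

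Markers of other cell types that a marrow sample can hold were read beside these differences, and their part in them was not tested. Eosinophil, basophil and mast cell genes had 6 positive and 5 negative differences among 11 tested (median 0.29, and -0.11 on the scale of CPM plus 1), and their summed level ranged from 2131.9 to 8181.2 on the low side and from 3347.6 to 7388.0 on the high side. Beside Cpa3, the basophil protease Mcpt8 separated in the same direction (221.6, 216.2, 658.8 and 336.4 against 1025.5, 889.4, 1088.5 and 1680.9). Prss34, another gene of this list, was higher on average on the low side but overlapped (log2 difference 2.69). The eosinophil gene Prg2 was high in 11B3-deleted replicate 3 only (4828.0, against 4.3 to 409.3 in the other 7). The mast cell genes Fcer1a and Cma1 did not exceed 12.5 in any library. The library medians of the lymphoid and stromal lists overlapped between the sides. Separating genes named in this paragraph had the high side higher, as did 8.56% of all tested genes. B cell genes had 16 positive of 19 (median 1.21, and -0.03 without 11B3-deleted replicate 3), and their summed level of 73328.0 in that library compared with 4001.6 at most on the high side. T and NK cell genes had 12 negative of 22 (median -0.33) with summed levels of 1071.7 to 3339.4 on the low side and 2304.5 to 5023.3 on the high side, and Gzmb, a cytotoxic granule protease, separated (67.4, 27.2, 57.9 and 62.8 against 78.5, 403.9, 345.7 and 237.8). Dendritic cell and MHC class II genes (median 0.25, 10 positive of 15, summed 6358.9 to 20080.9 against 6279.4 to 14000.8) overlapped throughout. Megakaryocyte and platelet genes (median -0.43, 14 negative of 19, summed 10694.6 to 28058.8 against 15442.7 to 43195.4) held 1 separating gene, Fli1 (-0.33). Marrow stroma and endothelium genes (median 0.08, 10 positive of 17, summed 4084.3 to 10770.1 against 8223.3 to 18041.1) held 1, the endothelial and leukocyte adhesion gene Pecam1 (-1.18), which overlapped with TMM factors and with CPM. None of the defining markers Cd79a, Cd3e, Cd3g, Lck, Pf4, Cxcl12, Col1a1, Cdh5 and Kdr was at 0 in any library. The 1 added to every deposited value makes a 0 impossible, so nothing is read from that. The lowest value of Cd79a was 40.8, in 11B3-deleted replicate 2.

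Stress and mitochondrial transcripts were read in the same way. Immediate-early and stress genes had 14 negative of 21 (median -0.15). Only Klf6 separated, at 4117.1, 4073.9, 5926.6 and 5123.2 against 8644.5, 7490.9, 6970.0 and 7651.4 (-0.69), beside 8.56% of all tested genes in that direction. The summed level of this list ranged from 28437.4 to 64005.3 on the low side and from 27667.0 to 104009.3 on the high side. All 14 tested mitochondrial genes were positive and 5 separated, beside 7.78% of all tested genes with the low side higher. Among the 5 was mt-Cytb, a subunit of respiratory complex III (94894.1, 113144.1, 125396.9 and 173610.2 against 59302.3, 84719.9, 90027.0 and 67716.5, 0.73). The mitochondrial median of 0.52 fell to 0.16 without p53-loss-only replicate 4, the library that also stood apart on the second component. Whether RNA quality or preparation bears on any difference between the sides was not tested.

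The only groups that the labels define are the genotypes, and they were compared without and with the Chi3l3 side as a term. A comparison of 11B3-deleted with p53-loss-only libraries (limma, Benjamini-Hochberg adjusted p under 0.05) called 2 of 14679 genes (0.0136%), both lower in the 11B3-deleted libraries. With the Chi3l3 side added as a term it called 7 genes (0.0477%), 6 lower and 1 higher, and the 2 earlier genes were among them. Since the sides hold both genotypes equally, the estimated genotype differences were identical in the 2 fits. What changed was the standard error, smaller with the side term for 12802 of 14679 genes, with a median ratio of 0.9031. The side was chosen on values of these same libraries, so the fit with it is not independent of the data. Leaving out any 1 library left 0 or 1 called gene in either fit.

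Cd68, a lysosomal glycoprotein of monocytes and macrophages, was called only with the side term. Whether Cd68 or the other called genes lie in the deletable 11B3 interval was not examined here. Their lower values are therefore not read as a difference in cell state. Cd68 stood at 1210.6 and 826.8, then 1913.3 and 1590.6, in the low-side and high-side 11B3-deleted libraries, and at 5681.6 and 3414.0, then 7027.3 and 8889.4, in those of p53 loss only. Every 11B3-deleted library was below every p53-loss-only library, and within each genotype the low side was below the high side. The genotype difference was -2.16, with a standard error of 0.34 and a limma adjusted p = 0.2879 without the side, and a standard error of 0.21 and a limma adjusted p = 0.01656 with it. Plod1, a collagen lysyl hydroxylase, stood at 1118.9 and 929.6, then 1869.2 and 2081.4, in the same order, and at 1957.8 and 2687.7, then 5736.8 and 5272.0, in the p53-loss-only libraries. Its genotype difference was -1.32, and its limma adjusted p = 0.9962 became 0.0485 with the side term. The Plod1 call was lost with no filter on low values, with a constant of 5 and with a mean value of at least 50.

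Gabarap, an autophagy protein of the Atg8 family, was lower by -1.16 in the 11B3-deleted libraries, at 3176.0, 3860.0, 3434.2 and 3467.7 in replicates 1 to 4 against 8421.7, 6725.7, 9055.0 and 7026.1 (limma adjusted p = 0.1326 without and 0.01818 with the side). The gene listed under the clone name 1500010J02Rik was lower by -1.31 (limma adjusted p = 0.5689 without and 0.02261 with the side). The 1 gene higher in the 11B3-deleted libraries was Xlr3b, an X-linked gene of the lymphocyte-regulated family, at 243.1, 17.1, 208.4 and 58.7 against 1.0, 7.4, 1.0 and 3.1 (5.27, limma adjusted p = 0.4247 and 0.01656). Xlr3b was also higher on the low side by 2.55, did not pass with edgeR (adjusted p = 0.07703), and has close copies on the X chromosome that may share its reads. BC018473 and St6galnac1, a sialyltransferase, were called with and without the side term. In both fits the call of St6galnac1 was lost with a constant of 5 and with a mean value of at least 50, as was that of Xlr3b with the side. BC018473 and St6galnac1 had 3 and 1 reads over the 4 11B3-deleted libraries against 35675 and 1352 reads over the 4 p53-loss-only libraries. Both passed the filter for testing only through the p53-loss-only libraries, and Xlr3b only through the 11B3-deleted libraries. Whether these 3 genes were tested thus depended on the group where they are high.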

How the data were processed

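Total RNA of 8 leukaemia libraries (4 per genotype, taken from the sample titles) was sequenced by the authors. STAR, HTSeq, DESeq and the build mm9 are listed in the submitters' processing notes with no role, order or version. The deposited tables hold a signal value for each of 18860 genes. The deposited signal was found from the values to equal reads over a size factor, plus 1, and 100% of values came out whole within 0.02 reads. Totals were 30502718 to 35719495 reads per library. The sources used here do not say whether counting was strand-aware.

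Log2 of the deposited value was used, with its 1 as the pseudocount, which understates folds of genes with few reads. A gene was tested if it reached 10 in 4 or more libraries. Side differences are low minus high, equal to a fit with genotype as a term, and carry no test. Genotypes were compared two-sided with limma 3.58.1 (mean-variance trend, Benjamini-Hochberg over all tested genes, threshold 0.05). The test planned for counts, edgeR 4.0.16, was run on the recovered reads as an alternative, with DESeq2 1.42.0, and edgeR called 1 gene without and 6 genes with the Chi3l3 side. Other alternatives were TMM factors, CPM (for lists and single genes chosen after seeing the data), a constant of 5, other filters, the replicate number as a block, each genotype alone and each library left out. CPM had 1 added before log2, which stands for more reads than the 1 of the deposited values. Differences with CPM therefore mix the scaling with this larger constant, which pulls genes with few reads towards 0. R 4.3.3 and Python 3.11.15 were used, and the procedures were checked on simulated data. Intervals of shares are Wilson intervals.

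The sides, the 23 gene lists and the naming rule were chosen with earlier results of these data known. The rule names Chi3l3, Car1 and Gata1, the chitinase-like genes, up to 12 separating genes per direction by difference (mean of at least 100, no clone names), up to 4 members per list by difference and those a list is known by, and up to 6 called genes per direction. Other genes named with a value were chosen after their values were seen. Spi1, Marco, Ear10, Ahsp and Bglap were not matched and are not analysed here. Values of a few genes of the lists and of the naming rule are not reported here. Promoters are from RefSeq (GRCm38.p6), matched by symbol for 12654 of 18860 genes. Transcript identity was computed from GENCODE (GRCm38). No coordinates of the build mm9 are given.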

Additional observations from a re-analysis of the deposited data

Results flagged for a closer look

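In groups of 4 libraries of 1 genotype, 9 values stood apart from the other 3 by Dixon's criterion, among 274 groups looked at, and chance gives such a value in about 1 in 20 groups. In 11B3-deleted replicate 1 the library median of the tertiary granule and mature neutrophil list was -0.78, against 0.05 to 0.21 in the other 3, and that of the marrow stroma and endothelium list was -0.46, against 0.57 to 0.71. Hic1, a transcriptional repressor, was at 1116.9 in the same library, against 11.8 to 24.3. Prss57 was at 2047.1 in 11B3-deleted replicate 3, against 435.0 to 533.1, and in that library Il7r, the interleukin 7 receptor of lymphoid progenitors, was at 5270.9, against 124.0 to 235.3. Kit was at 658.5 in 11B3-deleted replicate 2, against 3362.1 to 4132.7. Mecom was at 14607.2 in p53-loss-only replicate 2, against 10.9 to 25.5. In p53-loss-only replicate 4 Clec10a, a lectin of macrophages and dendritic cells, was at 504.7, against 145.7 to 173.2, and mt-Rnr2, the large mitochondrial ribosomal RNA, was at 79465.8, against 11397.8 to 13290.7.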

How the results depend on the processing

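The differences of all 24 separating genes named for their size and those of Chi3l3, Chi3l4, Car1 and Gata1 kept their sign in all 14 alternatives run for them, of which CPM was added after seeing the data. So did the medians of the erythroid, haem synthesis, interferon, monocyte, primary and secondary granule, NADPH oxidase, growth factor receptor, transcription factor, alternative macrophage activation, chitinase, cell cycle, mitochondrial, and ribosome biogenesis and MYC lists. The B cell, T and NK cell, dendritic, megakaryocyte, stem, stroma, immediate-early, tertiary granule and eosinophil list medians changed sign in at least 1. The 24 genes, Chi3l3 and Chi3l4 have sides that do not overlap. Their sign could therefore not change within 1 genotype, with 1 library left out or with a constant of 5. Nothing is read from the kept signs of these genes in those alternatives. Leaving out 1 library gave 1215 to 2165 genes higher on the low side and 1374 to 2020 higher on the high side. Between genotypes limma called 2 genes, and 1 with a constant of 5, 1 with a mean value of at least 50 and 1 with edgeR, 58 with DESeq2, and 0 to 1 when 1 library was left out. With the Chi3l3 side the 7 genes became 4 with a constant of 5, 4 with a mean of at least 50, 159 with DESeq2 and 0 to 1 when 1 library was left out. When a p53-loss-only library was left out, BC018473 and St6galnac1 reached the level for testing in too few libraries. The same held for Xlr3b when an 11B3-deleted library was left out. The cause of the other changes was not tested. On the scale of CPM plus 1 the differences of 10 of the 24 genes moved by more than the spread between libraries, each towards 0, and that of Chi3l4 was -1.34.

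Nothing in the labels says that the replicate numbers pair the libraries. Deviations from the group means of same-numbered libraries had correlations of -0.03, -0.217, -0.414 and -0.243. Same-numbered libraries always lie on opposite Chi3l3 sides, so these correlations cannot show whether the numbers pair the libraries. With the replicate block limma called 0 genes without and 0 with the Chi3l3 side, and 375 and 1155 genes had an unadjusted p under 0.05, while DESeq2 and edgeR called the numbers given above without a block.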

Other observations

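Stem and progenitor genes did not follow the sides as a list (median -0.23, 15 negative of 26 tested), but single members differed widely. Mecom, which encodes the stem cell transcription factor Evi1, stood at 1625.6, 7639.8, 14607.2 and 25.5 on the low side and at 21.4, 263.7, 19.4 and 10.9 on the high side. All but 1 of the low-side libraries were above every high-side library, and the exception was p53-loss-only replicate 4. Cd34, a surface marker of progenitors, separated in the other direction, at 967.5, 1215.5, 2733.1 and 643.1 against 3932.1, 5574.7, 6801.0 and 5463.9 (log2 difference -2.16). Angpt1, a ligand of the Tie2 receptor, stood at 423.7, 148.3, 100.1 and 275.7 against 37.6, 212.2, 22.4 and 7.6 (2.58). Hoxa10, a homeobox gene of early progenitors, was at 498.2 and 156.3 in the high-side 11B3-deleted libraries and between 3.0 and 60.6 in the other 6.

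Early B lineage genes were carried by 11B3-deleted replicate 3, a low-side library. Cd79b stood at 13274.2 there and between 94.2 and 1531.2 in the other 7, and Rag1, a recombinase of antigen receptor genes, at 3889.7 against 1.0 to 160.8. Vpreb3 was at 6361.4 there and between 5.3 and 77.3 elsewhere. Ciita, the master regulator of MHC class II genes, was at 9660.7 in p53-loss-only replicate 4 and between 21.8 and 190.9 in the other 7. Its target H2-Aa was not highest in that library, at 896.6 against 1968.9 in p53-loss-only replicate 2.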
